A study of Danio rerio with 6 samples.

Results

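Liver plasma protein genes were followed in RNA-seq libraries of proximal tubules dissected from zebrafish larvae with acute kidney injury. The 5 genes *fabp10a*, *tfa*, *cp*, *fgb* and *fgg* were taken by their Ensembl identifiers from a count table of 32520 genes. All 5 were among the 17497 genes that passed a filter on low counts and were tested. They were chosen to follow liver RNA carried along in the dissection, and to ask whether its level differed between the groups or in the replicate 3 library of gent-AKI+UPHD25.

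The 2 groups were gent-AKI+UPHD25 and gent-AKI+DMSO, with 3 libraries each. All larvae carried the *Tg(PT:egfp)* transgene, which labels the proximal tubule with EGFP, and all were injected with the nephrotoxic antibiotic gentamicin at 3 days post fertilization (dpf). At 2 days after injection (5 dpf) the treated larvae received 1 μM UPHD25, a methyl ester prodrug of the histone deacetylase inhibitor PTBA, in 1% DMSO, and the controls received 1% DMSO alone. Treatment lasted 24 h, and green pronephros was dissected by hand from a pool of 100 larvae per library at 6 dpf after digestion with collagenase. The tissue was picked with forceps and the cells were not sorted, and no uninjured group was analysed here. The labels number the libraries of each group 1 to 3 and do not say whether these came from separate clutches, so p-values measure the spread between these pools. UPHD25 replicate 3 stood apart from the other libraries, with a TMM composition factor of 1.21 where the other 5 had 0.903 to 1.00, and fitted changes of the 5 genes are also given without it.

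Most plasma proteins are made by hepatocytes and secreted into the blood. Fabp10a, the bile acid and fatty acid binding protein of the zebrafish liver, stays in the hepatocyte cytosol, and its gene is widely used as a hepatocyte marker. Transferrin (*tfa*) carries iron and ceruloplasmin (*cp*) carries copper and oxidizes iron. The beta and gamma chains of fibrinogen (*fgb*, *fgg*) assemble with the alpha chain (*fga*) into the protein that forms the fibrin clot.

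All 5 genes were detected in every library, and no change passed the test. By point estimate each was lower after UPHD25, by between 0.29 (*cp*) and 1.12 (*fgg*) on the log2 scale, but for each of the 5 the groups overlapped and the 95% interval of the change included 0. The extremes lay in the same libraries for most of the genes. DMSO replicate 2 had the highest level of all 5 genes, and UPHD25 replicate 3 the lowest level of 4 of them.

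The 5 genes together took 98754, 29796 and 28200 reads in UPHD25 replicates 1, 2 and 3, against 107399, 65624 and 50803 reads in DMSO replicates 1, 2 and 3. As a share of all counts on genes this was 0.423% (95% exact binomial interval 0.421% to 0.426%), 0.276% (0.273% to 0.280%) and 0.229% (0.226% to 0.231%) in UPHD25 replicates 1 to 3. In DMSO replicates 1 to 3 it was 0.349% (0.347% to 0.351%), 0.554% (0.550% to 0.558%) and 0.422% (0.419% to 0.426%). Such intervals hold only the error of counting, and they are too narrow even for that where PCR copies of a molecule are counted as separate reads. Apart from UPHD25 replicate 1 and DMSO replicate 3, the libraries differed by far more than these intervals. UPHD25 replicate 1 lay between DMSO replicates 1 and 2, so the groups overlapped.

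Levels are given below as CPM (reads of a gene scaled to a common library size) after TMM scaling, which corrects the library total for RNA composition. The sum over the 5 genes was 3044 ± 1249 CPM (SD, n = 3) after UPHD25 and 4653 ± 1327 CPM (SD, n = 3) after DMSO, a ratio of means of 0.654, or 0.778 without UPHD25 replicate 3. Within a group the highest library exceeded the lowest by 2.31-fold after UPHD25 and by 1.71-fold after DMSO. In a pooled tissue sample, fewer hepatocytes, less RNA per hepatocyte and a change in these genes in other cells, the tubule included, cannot be told apart. Which cells the RNA of the 5 genes came from was not tested. Transcript lengths were not used here, so CPM is compared between libraries for a gene and not between genes.

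Transferrin (*tfa*, ENSDARG00000016771) stood at 1972, 1832 and 1036 CPM in UPHD25 replicates 1, 2 and 3, against 1622, 2541 and 2325 CPM in DMSO replicates 1, 2 and 3. It varied least of the 5 genes, with a 2.45-fold range over the 6 libraries. DMSO replicate 1 lay below UPHD25 replicates 1 and 2, and UPHD25 replicate 3 was the lowest library. The fitted log2 fold change was -0.42 (standard error 0.32, 95% interval -1.16 to 0.31, adjusted p = 0.687 in edgeR's quasi-likelihood fit, adjusted by Benjamini-Hochberg over all genes tested). Leaving out UPHD25 replicate 3 gave -0.19. A two-sided exact permutation test of the CPM gave p = 0.3, where 3 libraries against 3 allow no p under 0.1.

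Ceruloplasmin (*cp*, ENSDARG00000010312) had 328, 200 and 106 CPM in UPHD25 replicates 1 to 3, against 195, 383 and 197 CPM in DMSO replicates 1 to 3. UPHD25 replicate 2 was thus at the level of DMSO replicates 1 and 3, and UPHD25 replicate 1 was well above them. Its fitted change was the smallest, -0.29 on the log2 scale (standard error 0.43, 95% interval -1.29 to 0.71, edgeR adjusted p = 0.868). Its direction rested on single libraries. Without UPHD25 replicate 3 the fitted change was 0.03, and without DMSO replicate 2 it was 0.10.

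The fibrinogen beta chain (*fgb*, ENSDARG00000008969) was at 1680, 762 and 533 CPM in UPHD25 replicates 1 to 3, against 1501, 2479 and 1465 CPM in DMSO replicates 1 to 3. UPHD25 replicates 2 and 3 lay below every DMSO library, and UPHD25 replicate 1 above DMSO replicates 1 and 3. The fitted change was -0.87 on the log2 scale (standard error 0.45, 95% interval -1.90 to 0.16, unadjusted p = 0.0863, adjusted p = 0.495 in edgeR). Leaving out UPHD25 replicate 3 gave -0.57, and leaving out DMSO replicate 2 gave -0.59. Without UPHD25 replicate 1 the change was -1.50 with an adjusted p of 0.0868 in edgeR, the smallest adjusted p of any of the 5 genes under any alternative run.

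The fibrinogen gamma chain (*fgg*, ENSDARG00000037281) had 533, 296 and 201 reads in UPHD25 replicates 1 to 3 and 779, 949 and 332 reads in DMSO replicates 1 to 3. Its level was 23.6, 28.5 and 13.5 CPM after UPHD25, against 26.0, 88.8 and 27.6 CPM after DMSO. DMSO replicate 2 lay well above the other libraries and UPHD25 replicate 3 below them, and the highest UPHD25 library was above 2 of the 3 DMSO libraries. Its fitted change was the largest of the 5, -1.12 on the log2 scale (standard error 0.51, 95% interval -2.29 to 0.06, unadjusted p = 0.0593, adjusted p = 0.426 in edgeR). It was -0.31 without DMSO replicate 2 and -0.87 without UPHD25 replicate 3.

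The hepatocyte marker *fabp10a* (ENSDARG00000038439) had its lowest level in UPHD25 replicate 2, unlike the genes of the 4 secreted proteins, which had theirs in UPHD25 replicate 3. It had 369, 43.5 and 205 CPM in UPHD25 replicates 1 to 3, against 245, 649 and 215 CPM in DMSO replicates 1 to 3. UPHD25 replicate 2 held 452 of its reads, the lowest level, and UPHD25 replicate 3 was close to DMSO replicate 3. Its 14.9-fold range over the libraries was the widest of the 5 genes. The fitted change was -0.84 on the log2 scale (standard error 0.71, 95% interval -2.48 to 0.80, edgeR adjusted p = 0.730). It was -0.16 without DMSO replicate 2, -0.37 without UPHD25 replicate 2, -0.83 without UPHD25 replicate 3 and -1.58 without UPHD25 replicate 1.

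**Figure D1:**
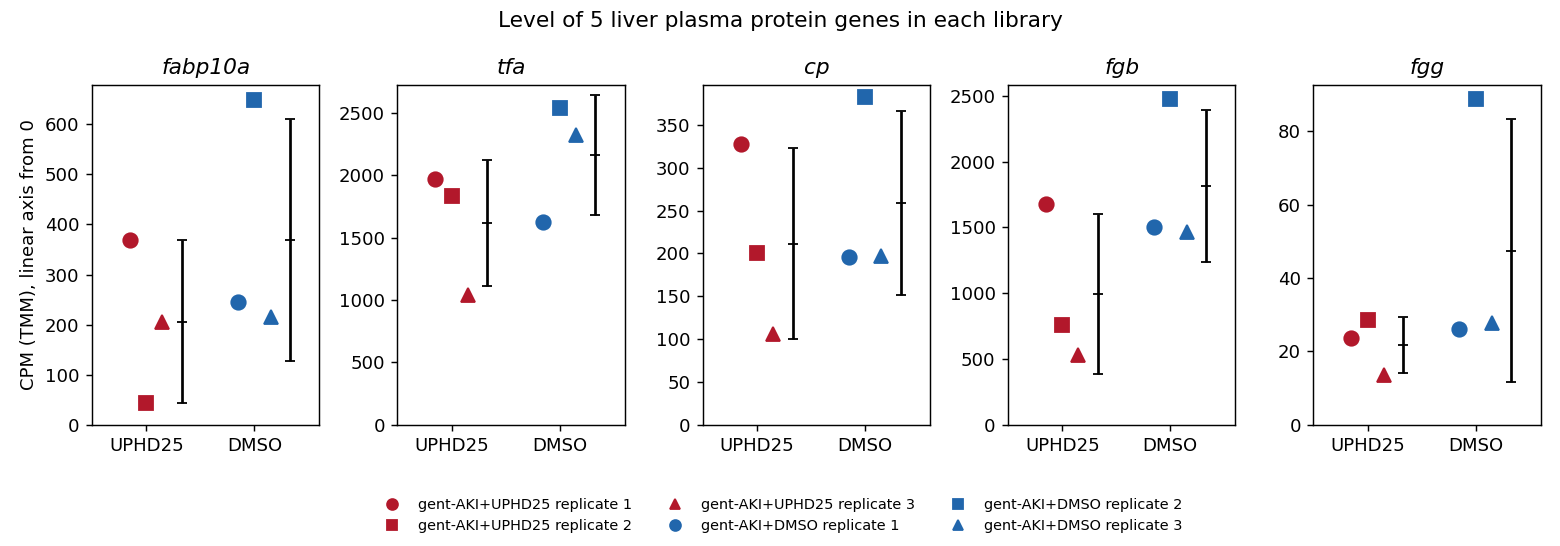
Level of each gene in CPM (vertical axes, linear and starting at 0, with a different scale for each gene) in the 3 gent-AKI+UPHD25 libraries (red) and the 3 gent-AKI+DMSO libraries (blue), with marker shape giving the replicate number and black bars the mean and SD (n = 3). The groups overlap for all 5 genes, DMSO replicate 2 is the highest library in each panel, and *fabp10a* in UPHD25 replicate 2 is at 43.5 CPM.

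Of the 5 genes, edgeR gave 0 an adjusted p under 0.05, and 0 had an unadjusted p under 0.05. Over all genes tested the shares were 0% and 12.5%, and 3.41% had an unadjusted p under 0.05 with a lower level after UPHD25. DESeq2's Wald test also called 0 of the 5, against 3.46% of all genes with an adjusted p in that test, or 0.655% called lower after UPHD25. The number of genes with groups that do not overlap was 0 of 5, where 7.46% of all genes had every UPHD25 library below every DMSO library and 10.4% every UPHD25 library above. The median fitted change was -0.84 for the 5 genes and 0.03 for all genes tested, and all 5 were below 0, where 47.3% of all genes were. Of the 5, 3 were below -0.5 and 1 below -1, against 7.98% and 1.42% of all genes. Without UPHD25 replicate 3, and likewise without DMSO replicate 2, 4 of the 5 were below 0.

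Same-numbered libraries of the groups shared part of their deviations across genes, so the change was also described within each pair. In the replicate 1 pair 1 of the 5 genes was lower after UPHD25, and in the replicate 2 pair and the replicate 3 pair all 5 were. Over all genes tested the lower shares in these pairs were 48.9%, 48.9% and 47.7%. *fgg* was lower in all 3 pairs, as 18.7% of all genes were. In the replicate 1 pair the ratio of UPHD25 to DMSO was between 0.907 (*fgg*) and 1.68 (*cp*), in the replicate 2 pair between 0.0670 (*fabp10a*) and 0.721 (*tfa*), and in the replicate 3 pair between 0.364 (*fgb*) and 0.956 (*fabp10a*). With the replicate number as a block, 2 of the 5 genes had an unadjusted p under 0.05 in edgeR, *fgg* at 0.0197 (log2 fold change -0.94, adjusted p = 0.222) and *fgb* at 0.0464 (log2 fold change -1.01, adjusted p = 0.312). In that fit 5.02% of all genes had an unadjusted p under 0.05 with a lower level after UPHD25, and 0 of the 5 genes passed the adjusted threshold.

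**Figure D2:**
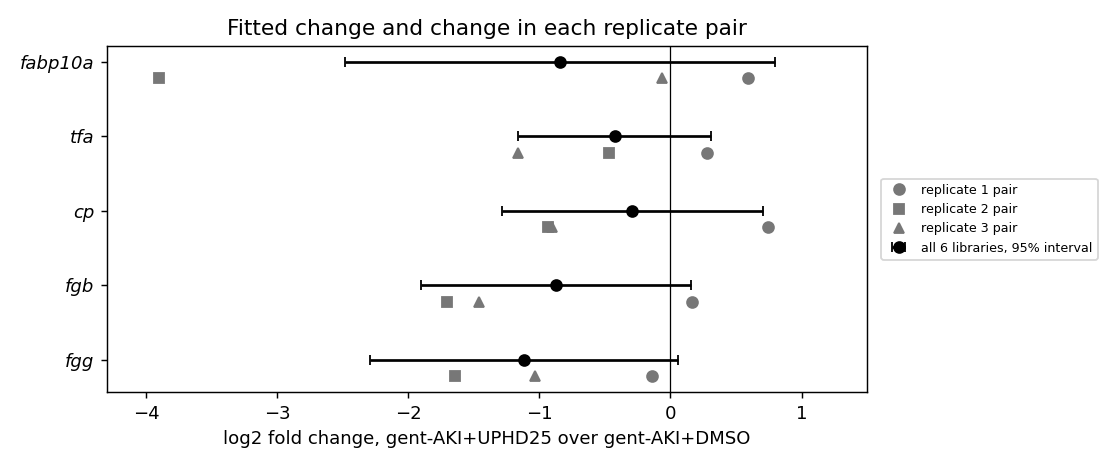
Log2 fold change of gent-AKI+UPHD25 over gent-AKI+DMSO (horizontal axis) for each gene, with black points and bars for the edgeR fit over 6 libraries and its 95% interval, and grey markers for the ratio within each same-numbered pair. Every interval includes 0, and the replicate 1 pair lies to the right of the other pairs for each of the 5 genes.

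UPHD25 replicate 3 had 0.525 of the median level of the other 5 libraries for *tfa*, 0.529 for *cp*, 0.355 for *fgb* and 0.488 for *fgg*. For *fabp10a* the value was 0.839, and UPHD25 replicate 3 ranked above UPHD25 replicate 2. This library was the lowest for 4 of the 5 genes, where it was the lowest of the 6 for 23% of all genes tested, and it was the lowest for 4 also when scaled by library totals. DMSO replicate 2 was the highest for all 5 genes with TMM scaling, against 15.6% of all genes, and for 4 with library totals, under which *tfa* was higher in DMSO replicate 3.

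The proportions of the 5 genes within a library do not depend on scaling. For the 6 pairs among *tfa*, *cp*, *fgb* and *fgg*, the SD over the 6 libraries of the log2 ratio was between 0.36 and 0.59. For the 4 pairs with *fabp10a* it was between 0.94 and 1.25. The ratio of *fabp10a* to *tfa* was 0.187, 0.0237 and 0.198 in UPHD25 replicates 1 to 3, against 0.151, 0.255 and 0.0924 in DMSO replicates 1 to 3. UPHD25 replicate 2 was therefore apart from the other 5 libraries in this ratio, while UPHD25 replicate 3 was within their range. The ratio of *tfa* to *cp* kept within a 1.96-fold range over all 6 libraries. The ratio of *cp* to *fgb* was 0.195, 0.263 and 0.199 in UPHD25 replicates 1 to 3. In DMSO replicates 1 to 3 it was 0.130, 0.154 and 0.135, so the groups did not overlap in this ratio. For every other pair of the 5 genes the groups overlapped. The ratio of *cp* to *fgb* was picked after all ratios were seen, and its difference was not tested. The ratio of *fgb* to *fgg* was 71.2, 26.8 and 39.5 in UPHD25 replicates 1 to 3, against 57.6, 27.9 and 53.0 in DMSO replicates 1 to 3, so the replicate 2 libraries of both groups had the lowest values.

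**Figure D3:**
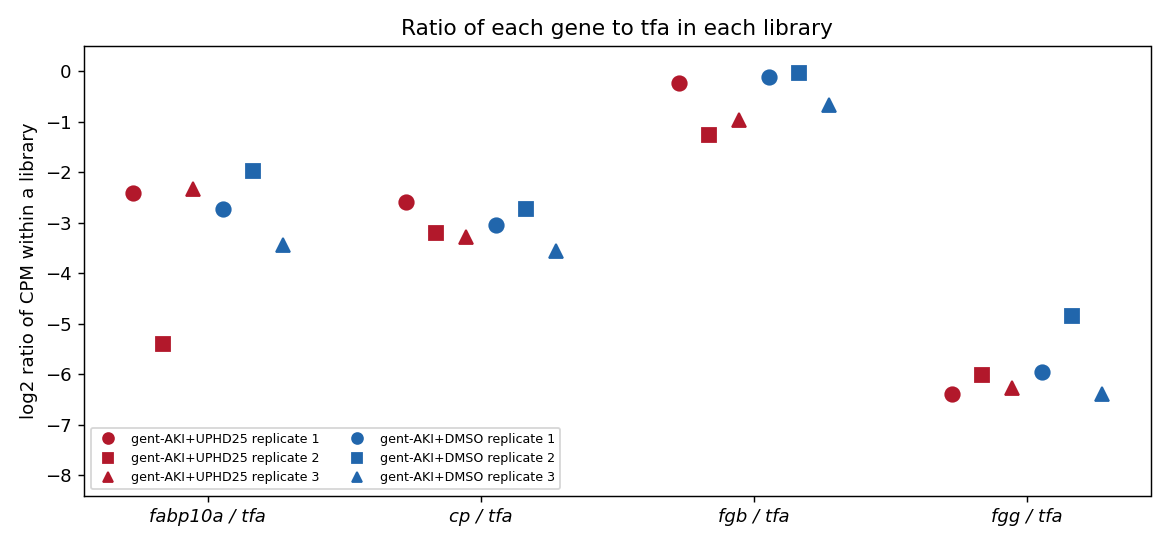
Log2 ratio of the CPM of each gene to that of *tfa* within a library (vertical axis), for the 3 gent-AKI+UPHD25 libraries (red) and the 3 gent-AKI+DMSO libraries (blue). The ratio of *fabp10a* to *tfa* in UPHD25 replicate 2 lies below the other 5 libraries at -5.40. The points of the groups overlap for every ratio to *tfa*, and ratios between the other genes are not shown.

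Other genes of the liver's secreted proteins were taken from 4 lists, for coagulation and fibrinolysis, carriers and apolipoproteins, complement, and protease inhibitors and fetuins. They matched 51 identifiers, of which 47 were tested. Their fitted change was below 0 for 38 and above 0 for 9, with a median of -0.42, beside 0.03 for all genes, and 0 passed the adjusted threshold. An unadjusted p under 0.05 was given for 3 by edgeR, *plg*, *proc* and *agt*, all lower after UPHD25, and for 9 with the replicate block, also all lower. As shares of the 47 these were 6.38% and 19.1%, where 12.5% and 15.6% of all genes had such a p in either direction and 3.41% and 5.02% with a lower level. The number depended on single libraries. It was 28 without UPHD25 replicate 1, where 16.7% of all genes had such a p and 4.94% with a lower level. It was 1, or 2.13% of the 47, without DMSO replicate 3 (8.96% of all genes, 2.13% with a lower level). It was 0 without DMSO replicate 2 (8.13% of all genes, 1.8% with a lower level). The 28 and the 1 were all lower after UPHD25. Without UPHD25 replicate 2 it was 2 (12.7% of all genes, 4.15% with a lower level), with 0 of the 2 lower. Without UPHD25 replicate 3 it was 4 (10.7% of all genes, 3.41% with a lower level), with 3 of the 4 lower. The number with a change below 0 was 34 without UPHD25 replicate 3 and 36 without DMSO replicate 2. A further tested identifier of *proc* had an unadjusted p of 0.204 in edgeR over all 6 libraries (log2 fold change -0.52).

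In the coagulation list 8 of 11 tested genes had a change below 0. The identifiers matched to *serpinc1* and *kng1* had 0 reads in every library and were not tested. Whether other identifiers hold these genes was not checked. The fibrinogen alpha chain *fga* was at 2240, 986 and 665 CPM in UPHD25 replicates 1 to 3, against 2020, 3714 and 2009 CPM in DMSO replicates 1 to 3, with a log2 fold change of -0.99 (standard error 0.48, edgeR adjusted p = 0.459). Its libraries stood in the same order as those of *fgb* at the ends, with DMSO replicate 2 highest and UPHD25 replicate 3 lowest. Plasminogen (*plg*), the precursor of the fibrin-degrading protease, had a change of -0.78 (adjusted p = 0.383 in edgeR), and coagulation factor V (*f5*) a change of -0.69 (adjusted p = 0.441 in edgeR). In this list UPHD25 replicate 3 was the lowest library for 10 of 11 genes, against 23% of all genes tested.

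In the complement list 10 of 11 tested genes had a change below 0 and UPHD25 replicate 3 was again the lowest library for 10. *c3a.1*, a gene of the central complement component C3, had 3233, 3097 and 1116 CPM in UPHD25 replicates 1 to 3, against 2635, 3818 and 2924 CPM in DMSO replicates 1 to 3. The log2 fold change was -0.33 for *c3a.1* (edgeR adjusted p = 0.835), -0.63 for *c3a.3* (edgeR adjusted p = 0.575) and -0.29 for *c9*, a pore-forming component (edgeR adjusted p = 0.867). Values of the C3 genes are uncertain, since close copies can share reads.

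Among carriers and apolipoproteins 12 of 16 tested genes had a change below 0. UPHD25 replicate 2, not replicate 3, was the lowest library for 9, where it was the lowest for 22.2% of all genes tested. UPHD25 replicate 3 was the lowest for 6 and the highest for 3, *apoa1a*, *apoc2* and *apoea*, against 23% and 28.3% of all genes tested. The HDL apolipoprotein gene *apoa1b* had 11428, 2579 and 2823 CPM in UPHD25 replicates 1 to 3, against 8725, 8663 and 5270 CPM in DMSO replicates 1 to 3 (log2 fold change -0.43, edgeR adjusted p = 0.855). *apoa2* was at -0.64 (edgeR adjusted p = 0.522). The retinol carrier gene *rbp4* was at -0.04 (edgeR adjusted p = 0.986), with 1557 CPM in UPHD25 replicate 1 and 1579 CPM in DMSO replicate 1, the highest libraries of their groups. Genes of this list are also expressed outside the liver.

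Of the protease inhibitors and fetuins 8 of 9 tested genes had a change below 0. UPHD25 replicate 3 was the lowest library for 4 of the 9 and UPHD25 replicate 2 for 5. Over the 4 lists together these counts were 30 and 16 of 47, against 23% and 22.2% of all genes tested. Angiotensinogen (*agt*) had 542, 265 and 169 CPM in UPHD25 replicates 1 to 3, against 492, 1011 and 799 CPM in DMSO replicates 1 to 3. Its change was the most negative of the 4 lists, -1.24 on the log2 scale (standard error 0.45, unadjusted p = 0.0252, adjusted p = 0.303 in edgeR). Fetuin B (*fetub*) was at -0.24 (edgeR adjusted p = 0.929) and the antitrypsin-like gene *serpina1l* at -0.53 (edgeR adjusted p = 0.784).

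Hepatocyte genes that are not plasma proteins were taken from lists of enzymes and transcription factors. Of 7 tested identifiers for hepatocyte enzymes 2 had a change below 0 and 5 above, with a median of 0.18. UPHD25 replicate 3 was the lowest library for 0 of the 7 and the highest for 4, against 23% and 28.3% of all genes tested. These 4 were weakly expressed, with means over the libraries from 1.74 CPM (*cps1*) to 10.4 CPM (*cyp7a1*). UPHD25 replicate 2, the library with the lowest *fabp10a*, was the lowest for 4 of the 7, *hal*, *tdo2b*, *tat* and *cyp8b1*, against 22.2% of all genes tested. The histidine-degrading enzyme gene *hal* was at 201, 61.9 and 68.0 CPM in UPHD25 replicates 1 to 3, against 164, 188 and 124 CPM in DMSO replicates 1 to 3, whereas the tryptophan dioxygenase gene *tdo2b* had 93.3, 12.98 and 42.3 CPM after UPHD25 against 70.8, 37.6 and 42.4 CPM after DMSO. The fitted log2 fold changes were -0.52 for *hal* (edgeR adjusted p = 0.732), -0.02 for *tdo2b* (edgeR adjusted p = 0.995) and 0.08 for the tyrosine aminotransferase gene *tat* (edgeR adjusted p = 0.980). The urea cycle enzyme genes *otc* (1.36, edgeR adjusted p = 0.313) and *cps1* (1.78, edgeR adjusted p = 0.352) were higher at an unadjusted p under 0.05, both at no more than 5.84 CPM in any library, and UPHD25 replicate 3 held the highest value of each. Without that library the changes were 0.88 for *otc* and 0.53 for *cps1*, neither at an unadjusted p under 0.05 in edgeR. Of the hepatocyte transcription factors all 4 tested genes had a change below 0, with UPHD25 replicate 3 the lowest library for 2 and DMSO replicate 2 the highest for 2. The changes were between -0.37 and -0.14, with *cebpa* at -0.34 (edgeR adjusted p = 0.562) and *foxa3* at -0.14 (edgeR adjusted p = 0.851). Transcription factors of this list are also known from kidney or gut. The identifier matched to *hnf4a* had 0 or 1 read per library and was not tested.

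The labelled tissue was checked on tubule markers beside the liver genes. The 6 tested proximal tubule genes summed to 148, 35.7 and 153 CPM in UPHD25 replicates 1 to 3, against 157, 35.0 and 105 CPM in DMSO replicates 1 to 3. The median fitted change was 0.13 for these and 0.01 for 5 genes expressed along the whole tubule. The changes of the latter 5 ran from -0.57 (*cdh1*, unadjusted p = 0.0354, adjusted p = 0.352 in edgeR) to 0.29 (*atp1a1a.4*). The replicate 2 libraries of both groups thus had the lowest sums of these 6 proximal tubule genes, while DMSO replicate 2 had the highest sum of the 5 liver genes. *slc3a1* was an exception, at 1.73 CPM in UPHD25 replicate 2 against 1.42 CPM in UPHD25 replicate 1. *cubn*, the endocytic receptor cubilin, showed the low replicate 2 levels with 34.0, 14.8 and 23.2 CPM after UPHD25 against 43.1, 11.9 and 30.9 CPM after DMSO. The 5 genes of the whole tubule list were not alike in this, the tubule cadherin *cdh17* having 125, 59.3 and 114 CPM after UPHD25 against 141, 73.5 and 149 CPM after DMSO, and the epithelial cadherin *cdh1* 172, 201 and 148 CPM after UPHD25 against 198, 304 and 270.4 CPM after DMSO. The sulfate and dicarboxylate transporter genes *slc13a1* and *slc13a3* had too few reads to be tested, 1 to 59 per library.

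Reads of marker genes of other tissues were present as well. Which cells this RNA came from, and its part in the results of the liver genes, were not tested. All 10 tested identifiers of exocrine pancreas enzymes had a change below 0, with a median of -1.17, 0 past the adjusted threshold and 6 at an unadjusted p under 0.05 in edgeR, where 47.3% of all genes were below 0 and 3.41% were lower at an unadjusted p under 0.05. Trypsin (*prss1*) had 4096, 1287 and 1473 CPM in UPHD25 replicates 1 to 3, against 5039, 6216 and 4280 CPM in DMSO replicates 1 to 3. The pancreas genes summed to 3332 to 9558 CPM after UPHD25, against 10500.5 to 16399.7 CPM after DMSO, and DMSO replicate 2 was the highest library for all 10 of them as it was for the 5 liver genes. UPHD25 replicate 2, the library with the lowest *fabp10a*, was the lowest for 8 of the 10, against 22.2% of all genes tested. All 5 tested skeletal muscle genes had a change below 0, with a median of -0.64 and sums of 10011.5 to 18241 CPM after UPHD25, against 21594.5 to 23920.2 CPM after DMSO. Of 5 epidermal genes 1 had a change below 0, with a median of 0.41, and they summed to 151 to 629 CPM after UPHD25, against 163 to 245 CPM after DMSO. The epidermal 629 CPM was in UPHD25 replicate 3, the library lowest in *tfa*, *cp*, *fgb* and *fgg*. The other lists, in turn distal tubule, podocytes, enterocytes, erythrocytes, leukocytes and endothelium, had 3, 3, 4, 2, 1 and 2 tested genes with medians of -0.12, -0.22, 0.15, -0.82, -1.09 and -0.11, none past the adjusted threshold. The enterocyte sum, like that of the proximal tubule genes, was lowest in the replicate 2 libraries, at 100 CPM after UPHD25 and 145 CPM after DMSO. So were the sums of the distal tubule list (14.4 CPM after UPHD25 and 20.5 CPM after DMSO) and the whole tubule list (358 and 496 CPM). The podocyte sum was lowest in UPHD25 replicate 3, at 44.1 CPM.

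**Figure D4:**
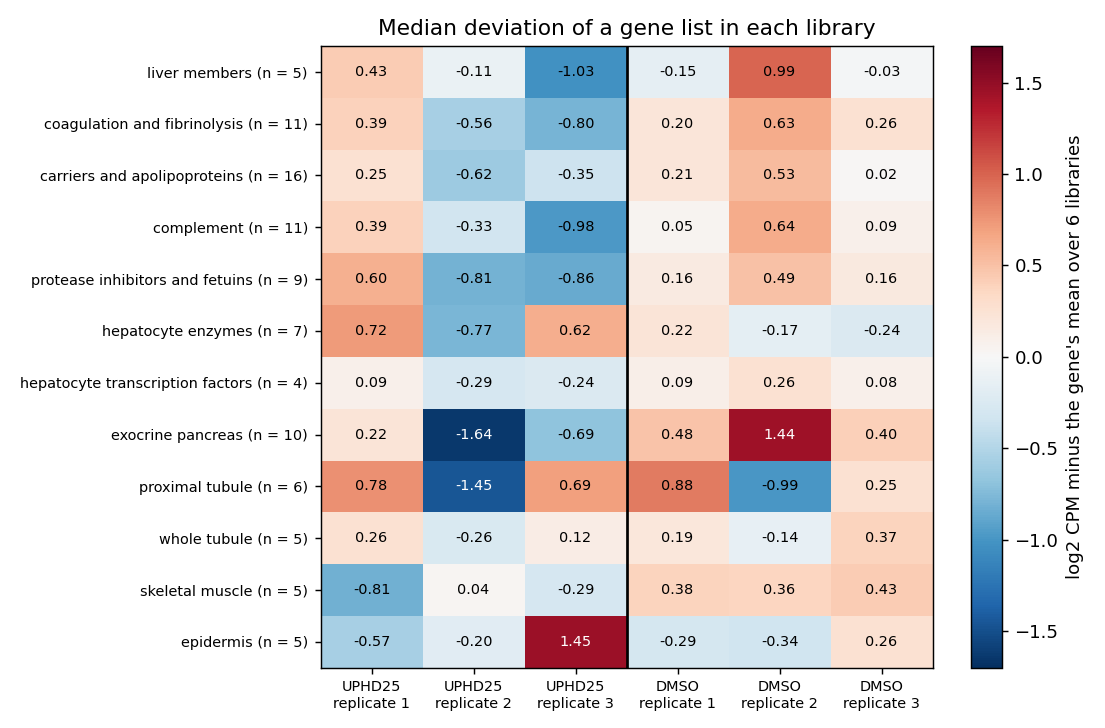
Median, over the tested genes of a list (rows, n in brackets), of log2 CPM minus the gene's mean over the 6 libraries, for each library (columns, gent-AKI+UPHD25 left of the line and gent-AKI+DMSO right of it). The 5 liver genes ("liver members") are at -1.03 in UPHD25 replicate 3 and at 0.99 in DMSO replicate 2, and proximal tubule genes are at -1.45 and -0.99 in the replicate 2 libraries.

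Genes most like the 5 in their levels over the libraries were sought among 9612 other genes with a mean of at least 10 CPM. Likeness was Pearson's r over the 6 libraries, which the libraries' composition and scaling enter for every gene, between a gene's log2 CPM and the mean standardized profile of the 5. The liver genes, which make up this profile, themselves had an r of 0.968 (*fgb*), 0.929 (*cp*), 0.879 (*fgg*), 0.873 (*tfa*) and 0.670 (*fabp10a*). The profile thus followed *fabp10a* less closely than the genes of the 4 secreted proteins. Among the 9612 genes the 5 highest were *serp1* (r = 0.996), *clip1* (0.992), *odr4* (0.982), *rpn2* (0.978) and *fga* (0.9751). SERP1 and RPN2 are known from mammals as proteins of the rough endoplasmic reticulum, and CLIP1 as a microtubule-binding protein. Apart from *fga* these genes varied little, *serp1* having 230, 201 and 188 CPM in UPHD25 replicates 1 to 3 against 215, 259 and 219 CPM in DMSO replicates 1 to 3. An r above 0.9 was reached by 6 of 10 coagulation genes, 5 of 10 complement genes, 3 of 14 carriers and 3 of 8 protease inhibitors and fetuins, beside 1.79% of the 9612 genes. It was reached by 0 of 4 hepatocyte enzyme genes (median r 0.28) and 0 of 2 hepatocyte transcription factor genes (median r 0.631). It was also reached by 0 of 5 proximal tubule genes and 0 of 8 pancreas genes, although the median r of the pancreas genes was 0.815.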

How the data were processed

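Paired-end reads were aligned by the authors to danRer11 with HISAT2 2.1.0 and counted per gene with featureCounts, and raw counts were deposited, without normalization or filter. The annotation release, strand option and handling of multiply aligned reads are not given in the sources used here. Columns were matched to samples by their labels, and 0 were left over. Counts on genes ranged from 10781071 to 30750026 per library, so that 3 counts stood for 0.100 to 0.289 CPM. Symbols were paired by identifier for 29201 of 32520 genes, and of 154 listed symbols 114 were matched, regardless of case. The names *cp*, *fgb*, *fgg*, *serp1*, *clip1*, *odr4* and *rpn2* are listed there in capitals. Where a symbol matched several identifiers all were kept.

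All genes were fitted with edgeR 4.0.16 (R 4.3.3) using TMM, filterByExpr (minimum count 10, minimum total 15), glmQLFit and glmQLFTest with group as the only term, and two-sided p-values were adjusted by Benjamini-Hochberg, with a threshold of 0.05. Log2 CPM had a prior count of 2. Single genes were compared by an exact permutation test (scipy 1.17.1). The fits were tested on simulated data. Across 17497 genes, the residuals about the group means of same-numbered libraries had correlations of 0.49, 0.29 and 0.21 for pairs 1, 2 and 3, and the pairing was taken from the labels' numbers and this check. Alternatives were scaling by upper quartile, by library totals or by size factors of DESeq2, the Wald test of DESeq2 1.42.0, other filters, the replicate block and each library left out. The members and lists were chosen with earlier results of these data known. Beside the 5 genes, the text names the 3 most abundant genes of each liver list, except 1 that is not reported here, and the 5 genes most like the members. The other genes named were chosen after their values were seen. Promoter motifs were not analysed here.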

Additional observations from a re-analysis of the deposited data

How the results depend on the processing

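Over 65 fits of a single gene (5 genes, 13 alternatives each), 63 kept the direction and the side of the threshold, and the adjusted p ranged from 0.0868 to 0.996. The exceptions were both of *cp*, at 0.03 without UPHD25 replicate 3 and 0.10 without DMSO replicate 2. The cause was not tested. With a library left out in turn, the log2 fold change ranged from -1.58 to -0.16 for *fabp10a*, -0.61 to -0.19 for *tfa*, -0.77 to 0.10 for *cp*, -1.50 to -0.57 for *fgb* and -1.44 to -0.31 for *fgg*. The number of the 5 genes past the adjusted threshold was 0 in every alternative. The number at an unadjusted p under 0.05 was 0 with TMM, 1 with library totals, 2 with DESeq2's Wald test, 1 with no filter on low counts, 2 with the replicate block and 0 to 1 with a library left out, all lower, where the share of all genes lower at such a p was 3.41% with TMM, 1.85% with library totals, 3.06% with DESeq2's Wald test, 2.95% with no filter and 5.02% with the block. Over all genes 639 passed the adjusted threshold with DESeq2's Wald test and 0 with edgeR's quasi-likelihood test (2186 at an unadjusted p under 0.05), and 0 to 1 with a library left out (1 without UPHD25 replicate 2). The replicate block changed no call at the adjusted threshold. The counts over the other plasma protein genes were added after seeing the data. Those at an unadjusted p under 0.05 numbered 3 with TMM, 6 with library totals, 9 with DESeq2's Wald test, 10 with no filter on low counts, 9 with the replicate block and 0 to 28 with a library left out. All were lower, except without UPHD25 replicate 2 (0 of 2 lower) and without UPHD25 replicate 3 (3 of 4 lower). Of the 5 genes most like the liver genes 3 were among the first 5 without UPHD25 replicate 3, and 4 reached the fifth-highest Spearman's rho, where 14 genes shared a rho of 1. Depth limits these 5 genes little, since their lowest count in a library was 201.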
